A study of Homo sapiens with 4 samples.

Results

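Ribosome footprints on 3′ untranslated regions (3′ UTRs, the stretch of an mRNA behind its stop codon) were examined in Hermes 4B cells, an immortalised line of human skin melanocytes. For each gene name the transcript with the most footprint reads over the 4 libraries was kept, which left 14355 transcripts of 38455. The 3′ UTRs were selected on their measured reads: at least 3 in every library, and at least 1% of their transcript's pooled reads. The selection gave 1136 of the 14355 kept transcripts, or 7.91%. The cells were labelled wild type and had received a control siRNA or one targeting the antisense RNA CDH3-AS1, which comes from the opposite strand of the P-cadherin gene CDH3. Each siRNA had 2 libraries, replicate 1 in batch 1 and replicate 2 in batch 2. All 4 libraries shared the culture medium, a transfection at 25 to 50 nM siRNA, 100 µg/mL cycloheximide to hold ribosomes in place, and RNase I digestion. No untransfected cells were analysed here, and 1 cell line stands for melanocytes in general. The labels do not state whether replicates were grown separately, and p-values therefore reflect only how far these samples spread, possibly for technical reasons.

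Translating ribosomes normally leave the mRNA at the stop codon, where the release factors eRF1 (ETF1) and eRF3 free the finished protein and ABCE1 splits the subunits. Footprints behind the stop codon are known to arise from ribosomes that read through it, that stay on the RNA unrecycled or start again downstream, or that translate a separate open reading frame in the 3′ UTR. The same reads can come from coding sequence of another isoform, from an overlapping gene, or from a structured RNA or RNA-protein complex that resists nuclease. Read totals per region, which were the values used here, do not tell these sources apart, and which of them gave the reads of any gene below was not tested.

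Total reads over all transcripts were 2034854 and 5994485 in control replicates 1 and 2, and 6759850 and 2858835 in CDH3-AS1 siRNA replicates 1 and 2. Libraries are given below in the order control 1, CDH3-AS1 1, control 2, CDH3-AS1 2. The 3′ UTR share of reads on kept transcripts was 3.00% (95% Clopper-Pearson interval 2.97 to 3.02), 1.64% (1.63 to 1.65), 0.697% (0.690 to 0.704) and 1.16% (1.15 to 1.17); these intervals cover counting error only. A large part of these reads in control replicate 1 did not belong to a selected transcript: SLC46A1, with 17002, 2, 19 and 0 reads, made up 33.6% of them, and without it that library's share was 2.01%. The selected 3′ UTRs held 44.6%, 62.8%, 60.0% and 62.0% of all 3′ UTR reads. All 9 melanocyte markers had coding reads in every library, at a summed 21847 to 40518 CPM (reads scaled to the library's coding total). Control replicate 1 also carried skeletal muscle markers, 8 of 9 with reads and 3497 CPM summed, against 3.07 to 6.93 and between 1 and 4 of 9 markers with reads in the other libraries. Of 5 fibroblast markers, 3 had reads there and summed to 492 CPM against 0.355 to 4.25 elsewhere, almost all from COL1A1 (379 CPM) and COL1A2 (111 CPM), while DCN was at 0. A longer fibroblast list summed to 601, 101, 342 and 239 CPM, and its gene FAP was lowest in control replicate 1, at 92.8, 95.1, 341 and 238 CPM. The 4 keratinocyte markers summed to 8.03 to 35.3, with 1 or 2 of 4 having reads. No muscle, fibroblast or keratinocyte marker was among the selected genes. Markers with almost no reads in some libraries could hardly meet the minimum of 3 in each, so this absence is in part built in. The part of this RNA in the values below was not tested. In bulk libraries, fewer cells of a type and less RNA per cell cannot be told apart.

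A few of the selected 3′ UTRs carry a microRNA gene, and these are shown because a hairpin gives a stretch of known sequence inside the region that was counted. Small RNA genes on either strand lay in the last bases of 11 of 930 selected genes with a usable strand (1.18%), against 48 of 11048 kept genes (0.434%). The selected genes had longer 3′ UTRs, so a longer stretch was searched in them. Among 3′ UTRs of 1000 to 4000 bases it was 6 of 490 selected (1.22%) against 23 of 4593 kept genes (0.501%). The difference was not tested. The 6 hairpins shown lie on the strand of their gene. The stretch searched was as long as the annotated 3′ UTR and ended at the RefSeq gene end, which assumes an unspliced 3′ UTR ending there. The mature sequences, from RefSeq on GRCh38.p14, are written 5′ to 3′ with the seed, bases 2 to 8, in capitals. No seed is shared among the 6.
hsa-miR-198, in FSTL1, chr3:120395668-120395729, minus strand: gGUCCAGAggggagauagguuc
hsa-miR-630, in ARIH1, chr15:72587217-72587313, plus strand: aGUAUUCUguaccagggaaggu
hsa-miR-4657, in PURB, chr7:44881748-44881800, minus strand: aAUGUGGAaguggucugaggcau
hsa-miR-4800-3p, in MXD4, chr4:2250077-2250156, minus strand: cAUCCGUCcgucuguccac
hsa-miR-6514-5p, in NXF1, chr11:62792702-62792771, minus strand: uAUGGAGUggacuuucagcuggc
hsa-miR-10399-5p, in ZC3HAV1, chr7:139044100-139044157, minus strand: aAUUACAGauugucucagaga
FSTL1, which encodes the secreted glycoprotein follistatin-like 1, is known as a transcript that yields either the protein or miR-198. Its 3′ UTR of 4659 bases held 9, 30, 5 and 14 reads beside 216, 908, 691 and 381 coding reads. ARIH1, an E3 ubiquitin ligase, had 8, 46, 15 and 10 reads over 19695 bases. PURB, a single-stranded DNA and RNA binding protein, had 8, 45, 20 and 9 reads over 8111 bases. These 3′ UTRs thus carried few reads per base, and it was not tested whether any of them lay on the hairpins. NXF1 (the mRNA export receptor; 3, 27, 4 and 5 reads), MXD4 (a MAX-binding repressor; 10, 19, 11 and 6) and ZC3HAV1 (the antiviral zinc-finger protein ZAP; 18, 21, 7 and 10) were similar in count. The other small RNA genes included SNORA25, SNORA32 and SNORD6 in TAF1D and SNORD118 in TMEM107. TAF1D, a subunit of the RNA polymerase I selectivity factor, had 25, 50, 75 and 65 3′ UTR reads against 435 coding reads in all.

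The selected 3′ UTRs were long. Their median annotated length was 2354 bases, with quartiles of 1142 and 3965, against 1064 bases over all kept transcripts. Their coding sequences were shorter, with a median of 1065 bases against 1332. The read minimum favours abundant transcripts, and both it and the limit on the share favour long regions. Lengths were also compared among transcripts with at least 1000 pooled reads, which deals with abundance only. There the median was 2228 bases for 707 selected and 885 for 2640 others, the latter including transcripts with no 3′ UTR. In that abundant class the selected share was larger in each longer class, from 7.53% of 943 transcripts with fewer than 500 bases through 16.4%, 23.0% and 31.3% to 42.7% of 386 transcripts with 4000 bases or more. Since both limits favour long regions, this order is in part built in. The longest were those of SMAD2 (32870 bases), the signal transducer of TGF-beta and activin, of FLRT2 (30931 bases), a guidance and adhesion receptor, and of ARIH1 (19695 bases). SMAD2 had only 4, 18, 3 and 4 reads and FLRT2 only 4, 15, 7 and 7 over these lengths. The shortest belonged to the histone genes H4C6 (56 bases) and H2AC13 (65 bases) and to the ribosomal protein gene RPL5 (59 bases), which had 7, 6, 10 and 10 reads.

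**Figure D1:**
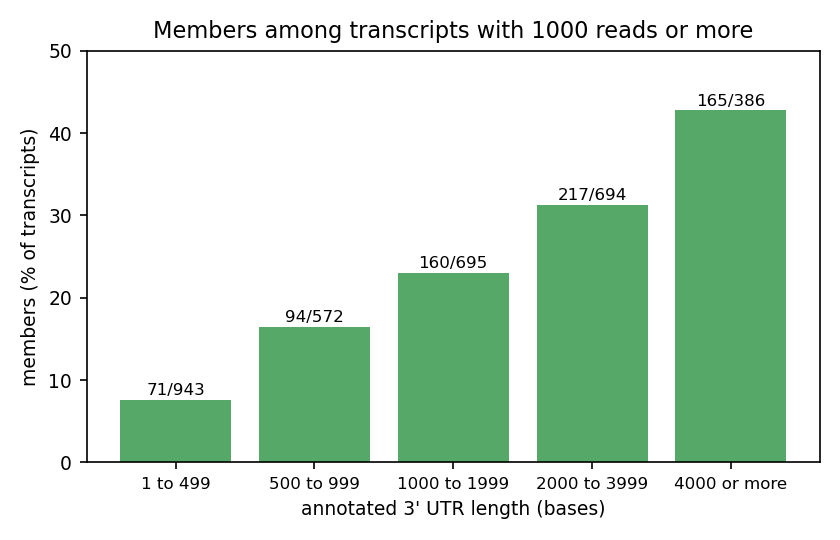
Share of kept transcripts with 1000 pooled reads or more that were selected (vertical axis, %), by annotated 3′ UTR length in bases; numbers above the bars are selected over all transcripts of the class. The share goes from 7.53% in the shortest class to 42.7% in the longest, which the read minimum and the limit on the share favour.

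Density was taken as reads per base of the 3′ UTR over reads per base of the coding sequence, with all 4 libraries summed. Over the 1121 selected transcripts with coding reads the median density ratio was 0.0283, with quartiles of 0.0135 and 0.0615 and a range from 0.000904 to 7.80. Longer 3′ UTRs had lower densities but similar reads. Over 4 equal groups of 3′ UTRs from the shortest to the longest the median ratio was 0.0624, 0.0331, 0.0222 and 0.0148, whereas median reads were 56.5, 63.5, 62.0 and 56.5. The selection used reads, and a short region reaches a fixed minimum only at a higher density, so this order is in part built in. IFI6, with a 3′ UTR of 317 bases, had a ratio of 0.0624, and SMAD2 had 0.00127. No RNA-seq was used, so these ratios compare 2 regions of a transcript and are no translational efficiency.

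**Figure D2:**
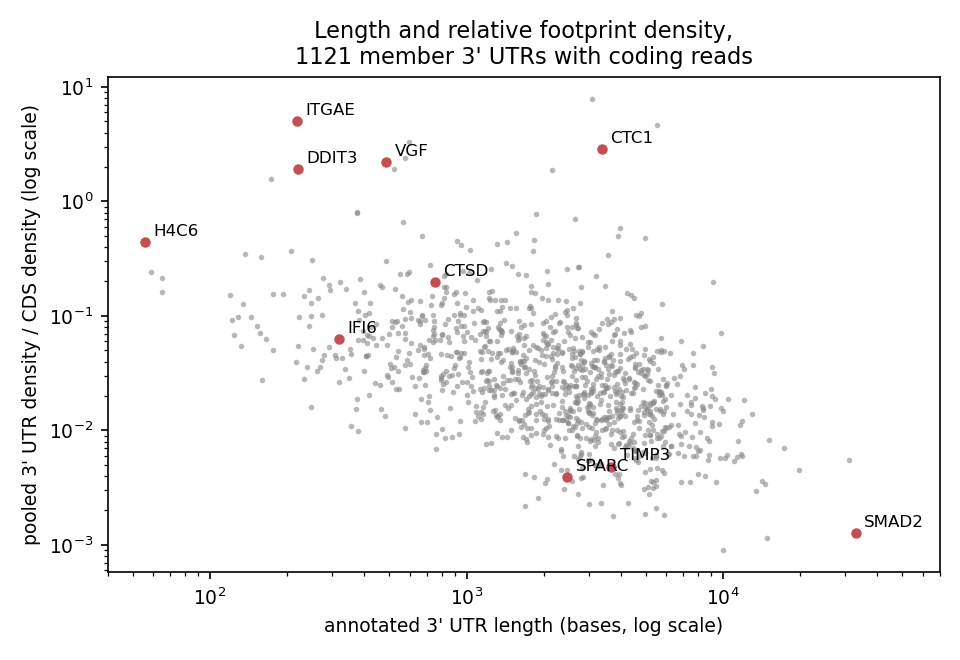
Annotated 3′ UTR length in bases (horizontal, log scale) against the pooled 3′ UTR to coding density ratio (vertical, log scale) for 1121 selected transcripts with coding reads, with 10 named genes in red. Most points lie well below a ratio of 1, and the 11 above it include DDIT3, VGF, CTC1 and ITGAE.

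The level of 3′ UTR footprints relative to coding footprints differed between libraries for most selected genes at once. Median density ratios were 0.0427, 0.0339, 0.0145 and 0.0236. Of the 1113 genes with coding reads in every library, 617 had their highest ratio in control replicate 1 and 778 had their lowest in control replicate 2. The 2 control libraries therefore stood at opposite ends, with replicate 1 above replicate 2 in 990 genes (88.9%). CDH3-AS1 siRNA replicate 1 was above its replicate 2 in 791 genes (71.1%). Within batch 1 the siRNA library was above its control in 423 genes (38.0%), with a median log2 ratio of -0.33, and within batch 2 in 900 genes (80.9%), with a median of 0.71. The 2 batches thus went in opposite directions. Both batch 1 libraries lay above both batch 2 libraries in 634 genes (57.0%). Both siRNA libraries lay above both controls in 174 genes (15.6%) and below them in 46 (4.13%). These counts were made for the selected genes only, so no share over all kept transcripts stands beside them. With 2 libraries against 2 such an order can arise without an effect of the siRNA, also in the single genes below. Whether the counts exceed a random order was not tested. The read minimum asks for a higher density in a shallow library than in a deep one. In each batch the shallower library was the higher one in most genes, so these counts are in part built in. Exactly 3 reads were found in 113, 14, 81 and 143 selected 3′ UTRs. The 3′ UTR share over all kept transcripts, which used no read minimum, ranked the libraries alike. How much the selection added was not tested. Over all kept transcripts the 3′ UTR share was 1.85% ± 1.63 with control siRNA and 1.40% ± 0.339 with CDH3-AS1 siRNA (SD, n = 2), a difference of -0.45 percentage points that did not exceed the spread (two-sided exact permutation test, p = 1.00). With 2 libraries against 2 the exact permutation test cannot go below p = 0.333. The difference was -1.35 points in batch 1 and 0.46 in batch 2, and without the 1522 transcripts that had over 90% of their 3′ UTR reads in 1 library it was 0.10 points. That limit had no read minimum, so it also takes out 3′ UTRs with very few reads. SLC46A1, with 99.9% of its 17023 3′ UTR reads in control replicate 1, was among those left out.

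**Figure D3:**
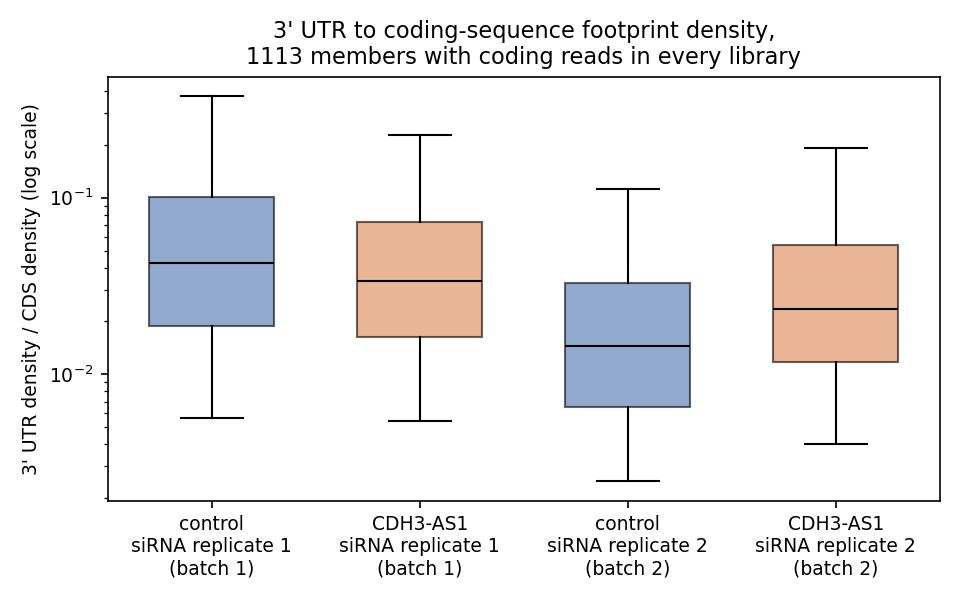
Density ratio of 3′ UTR to coding sequence (vertical, log scale) in each library for 1113 selected genes; boxes span the quartiles with the median as a line, and whiskers reach the 5th and 95th percentiles. The medians run from control replicate 1, the highest, to control replicate 2, the lowest, with both CDH3-AS1 siRNA libraries between them. The read minimum in every library favours higher ratios in the shallower libraries.

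The 10 genes with the most 3′ UTR reads were IFI6, TIMP3, TMSB10, SLC7A5, VGF, NGFR, CCND1, TIMP2, CTSD and SOX10. IFI6, an interferon-induced protein of mitochondria and the endoplasmic reticulum, led in 3 of the 4 libraries over all kept transcripts. It had 283, 3965, 658 and 1581 reads in its 3′ UTR and 13579, 71666, 23676 and 27779 in its coding sequence. Per 100 coding reads this was 2.08, 5.53, 2.78 and 5.69, so both siRNA libraries were above both controls. TMSB10, the actin-monomer-binding thymosin beta 10, had 198, 862, 592 and 433 3′ UTR reads, which was 40.2, 32.4, 15.4 and 25.9 per 100 coding reads. Control replicate 1 was highest and control replicate 2 lowest, with the siRNA libraries between. CTSD, the lysosomal protease cathepsin D, had 184, 493, 208 and 196 reads, or 16.9, 10.5, 10.1 and 18.3 per 100 coding reads, and its groups overlapped.

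Both inhibitors of matrix metalloproteases among the 10, TIMP3 and TIMP2, had long 3′ UTRs (3664 and 2690 bases) at low density. TIMP3 had 185, 1161, 253 and 533 reads, or 2.37, 3.07, 1.37 and 4.25 per 100 coding reads, with both siRNA libraries above both controls. TIMP2 had 284, 432, 306 and 196 reads, or 12.9, 7.06, 3.23 and 4.66 per 100, with the controls at both ends. Growth and nutrient genes followed the same library order as TIMP2. CCND1, the G1 cyclin D1, had 270, 676, 295 and 228 reads, which was 6.09, 3.84, 2.09 and 3.81 per 100 coding reads. SLC7A5, the light chain of the LAT1 amino acid transporter, had 294, 798, 275 and 303 reads, or 10.9, 6.38, 4.76 and 6.23 per 100. In each of these 3 genes control replicate 1 was highest and control replicate 2 lowest.

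NGFR, the p75 neurotrophin receptor of neural crest cells, had 219, 1018, 112 and 148 reads in its 3′ UTR. Per 100 coding reads the values were 15.1, 9.65, 11.3 and 13.9, and the groups overlapped. After each library's median was taken out, the log2 ratio of NGFR had a standard deviation of 0.66, against a median of 0.43 over the 50 genes described below. SOX10, the transcription factor that specifies neural crest and melanocytes, had 414, 544, 60 and 40 reads, or 13.6, 5.68, 1.38 and 1.49 per 100. Both batch 1 libraries of SOX10 were above both batch 2 libraries.

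**Figure D4:**
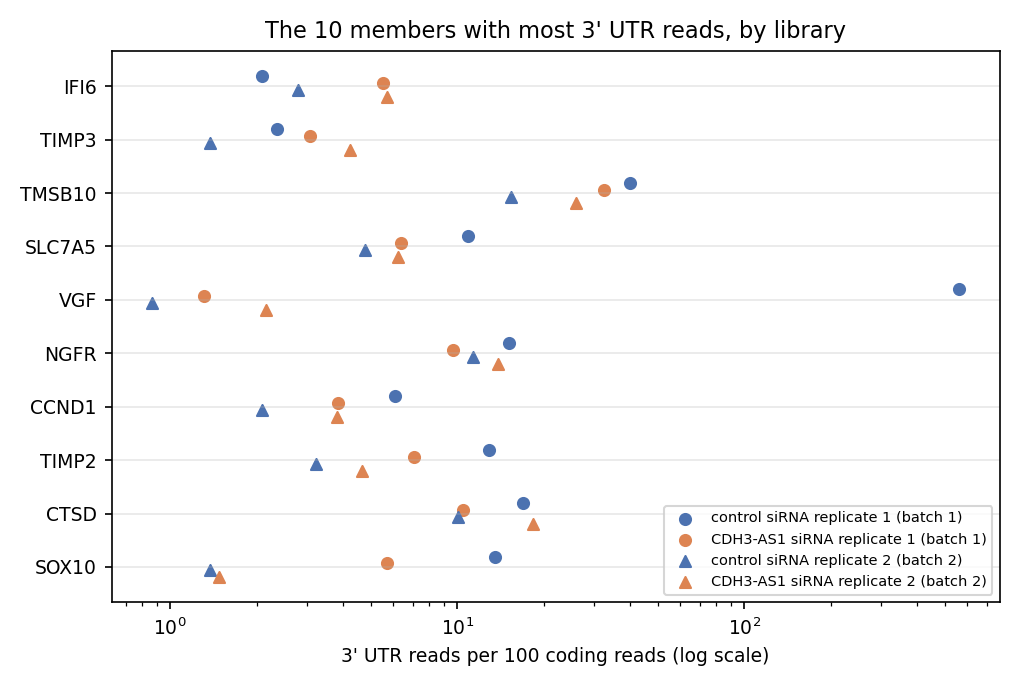
3′ UTR reads per 100 coding reads (horizontal, log scale) in each of the 4 libraries for the 10 selected genes with the most 3′ UTR reads; blue marks control siRNA, orange CDH3-AS1 siRNA, circles batch 1 and triangles batch 2. IFI6 and TIMP3 have both siRNA libraries above both controls, and VGF has 1 point, control replicate 1, far to the right.

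VGF was the only selected gene with over 90% of its 3′ UTR reads in 1 library. It encodes a secreted neuropeptide precursor and lies at chr7:101162509-101169952 on the minus strand, with a 3′ UTR of 487 bases. Its 3′ UTR had 1597, 7, 15 and 5 reads, so control replicate 1 held 98.3%. Its coding sequence had 284, 532, 1736 and 232 reads, and there control replicate 2 was highest. Per 100 coding reads VGF thus stood at 562 in control replicate 1 and at 1.32, 0.864 and 2.16 in the others. Next by share were H4C6, a histone H4 gene, with 3, 4, 46 and 3 reads (82.1% in control replicate 2), and POGZ, a chromatin regulator, with 19, 106, 3 and 4 reads (80.3% in CDH3-AS1 replicate 1). When reads were scaled to library totals, VGF reached 99.3%, followed by CTC1 at 83.1% and PSMD3, a proteasome lid subunit, at 80.5%, each in control replicate 1. In raw reads 472 of the 1136 genes (41.5%) had over 50% in 1 library, and the deepest library, CDH3-AS1 replicate 1, had a median of 29 reads per selected 3′ UTR against 10, 10 and 8 in the others.

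Most selected 3′ UTRs had far fewer reads than their coding sequence, but 30 had more, of which 15 had no coding reads at all. TPST1, a Golgi tyrosine sulfotransferase, had 61, 83, 218 and 77 reads over 578 bases against 31, 108, 151 and 60 coding reads. Its density ratio was 3.79, 1.48, 2.78 and 2.47, above 1 in every library. CTC1, a subunit of the telomere-maintaining CST complex, had 421, 266, 8 and 4 reads over 3365 bases, with ratios of 8.02, 2.80, 0.109 and 0.181. GNG7, a G protein gamma subunit, had 29, 45, 104 and 21 reads against 15, 39, 78 and 25, but over 3803 bases its pooled density ratio was only 0.0690. Fewer 3′ UTR than coding reads but a high density were found in DDIT3, PHLPP2 and THRA. Their coding reads below are those of the kept transcript only. Summed over all transcripts of the gene, DDIT3 had 93, 294, 95 and 45 coding reads. PHLPP2 had 53, 250, 96 and 70 in that sum, and THRA had 39, 114, 95 and 41. How far their high densities depend on the choice of transcript was not tested. DDIT3, the stress transcription factor CHOP, had 62, 185, 39 and 23 reads over 221 bases against 50, 212, 71 and 39 coding reads, and its density ratio was 2.86, 2.01, 1.27 and 1.36. The 3′ end of DDIT3 overlaps MARS1, the methionyl-tRNA synthetase gene. In CTC1 and DDIT3 both batch 1 ratios were above both batch 2 ratios, while those of TPST1 overlapped. PHLPP2, a phosphatase acting on AKT, also had both batch 1 ratios higher, with 43, 64, 5 and 4 reads against 15, 118, 40 and 27 coding reads. THRA, a thyroid hormone receptor whose 3′ end overlaps the clock gene NR1D1, had 32, 54, 14 and 10 reads against 18, 48, 30 and 16 coding reads.

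The genes without coding reads were led by an unnamed Ensembl entry, ENSG00000260272, with 63, 217, 131 and 135 reads. CD59, an inhibitor of the complement membrane attack complex, had 31, 187, 91 and 95 reads over 7265 bases. The coding sequence of the kept CD59 transcript is 231 bases, its gene had 8 transcripts in the tables, and the best of the others had 7 coding reads. TULP1, a photoreceptor gene, had 21, 45, 89 and 31 reads. EDARADD, the adaptor of the ectodysplasin receptor, had 9, 32, 108 and 22, and SLC9A3, a sodium-proton exchanger, had 24, 65, 65 and 25. TULP1 and EDARADD were highest in raw reads in control replicate 2, the library where most 3′ UTRs had their lowest density. The choice of transcript was also looked at: another transcript of the same gene had more coding reads than the kept one in 9 of the 15. This was so for 34 of 1136 selected and 331 of 14355 kept transcripts (2.31%). A kept transcript without coding reads is exceeded by any other that has some, so this contrast is in part fixed by how the 15 were defined. For KLC1, a kinesin light chain gene, another transcript had 230 coding reads.

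Overlap with a neighbouring gene was counted at the 3′ ends. A coding gene on the same strand overlapped the 3′ end of 2.80% of 930 selected genes and 2.90% of 11048 kept genes, and 1 on the opposite strand overlapped 12.2% and 11.6%. Among the 15 genes without coding reads, 4 of 10 with a usable strand overlapped a coding gene, and among the 15 with more 3′ UTR than coding reads it was 4 of 10. These included LRRC57 with SNAP23, KLC1 with XRCC3, C19orf25 with APC2 and ATXN7L3 with TMUB2. ITGAE, the integrin alpha E chain, had 5, 5, 11 and 6 reads in 219 bases and a pooled density ratio of 5.02, and its 3′ end overlaps P2RX5. PDCD6-AHRR, a locus that spans PDCD6 and AHRR, had 117 3′ UTR reads against 1 coding read. The use of strand in counting is not given in the sources used here, so reads of such pairs cannot be told apart.

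Transcripts known for unusual termination were followed through short lists. None of 15 listed genes known for stop codon readthrough in the tables was selected, and their median pooled share was 0%. Of 19 selenoprotein genes, which recode UGA as selenocysteine through an element in the 3′ UTR, 4 were selected (21.1%). SELENOF, a folding factor of the endoplasmic reticulum, had 9, 30, 27 and 22 reads. SELENON, a calcium-handling oxidoreductase, had 40, 27, 10 and 4, or 11.7, 5.25, 0.80 and 1.43 per 100 coding reads, with both batch 1 libraries high. SELENOK had 6, 10, 8 and 5 reads and SELENOT 6, 3, 9 and 3, close to the minimum. Of 5 genes with programmed frameshifting, OAZ1 and OAZ2, the antizymes that restrain polyamine synthesis, were selected (40%). OAZ1 had 11, 35, 19 and 16 reads, or 4.64, 3.99, 2.27 and 3.12 per 100 coding reads, and the coding sequence of its kept transcript is only 159 bases long. OAZ2 had 3, 12, 20 and 8 reads. Per list, the selected share is read against 7.91% over all kept transcripts, and no list was tested. That background holds many transcripts with few reads, with a median of 286 pooled reads against 1360 for the selected. Among 3290 transcripts with a 3′ UTR and at least 1000 pooled reads, 707 were selected. The lists were not matched for abundance, so a share above 7.91% may only reflect expressed genes.

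Among genes that act at termination or on aberrant mRNAs, 2 of 21 termination, recycling and rescue factors and 4 of 16 nonsense-mediated decay factors were selected. ETF1, which encodes the release factor eRF1, had 17, 22, 9 and 9 3′ UTR reads, and EDF1, a sensor of collided ribosomes, had 8, 25, 16 and 12. The decay helicase UPF1 had 3, 30, 14 and 11 reads, its kinase SMG1 17, 27, 5 and 5, and the adaptor SMG5 19, 29, 8 and 10. Of 76 cytosolic ribosomal protein genes only RPL27A, RPL38, RPL5 and RPS4X were selected (5.26%), and RPL38 was highest with 15, 59, 47 and 22 reads over 144 bases. Of 54 replication-dependent histone genes 6 were selected (11.1%). H4C5 had 45, 39, 23 and 11 reads in 65 bases, and H4C8, whose end holds a tRNA gene, had 6, 67, 37 and 17 in 1712 bases. Histone and ribosomal protein genes have near-identical copies, so the assignment of their reads is uncertain. Of 25 pigmentation genes, MLANA, SOX10 and TFAP2A were selected. MLANA, a melanosomal antigen, had 22, 143, 143 and 79 3′ UTR reads against 4029, 7712, 12624 and 3753 coding reads, a density ratio of 0.00259. TFAP2A, a transcription factor of neural crest and epidermis, had 7, 45, 32 and 67 reads. CDH3 itself was not selected, with 0, 2, 2 and 1 3′ UTR reads beside 445, 989, 1511 and 432 coding reads.

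There were 50 selected genes with at least 30 3′ UTR reads in every library, which allowed their variation to be described. The standard deviation over the 4 libraries of the log2 ratio of 3′ UTR to coding reads, after each library's median over all selected genes was taken out, had a median of 0.43. It was lowest for NFIC, a CCAAT-binding transcription factor (0.11), TMSB10 (0.11), the globin CYGB (0.15), the cell cycle inhibitor CDKN1A (0.17) and the autophagy protein GABARAP (0.17). NFIC, for instance, had 19.2, 13.9, 6.87 and 9.23 3′ UTR reads per 100 coding reads. CDKN1A had 10.0, 7.49, 3.33 and 4.22, in the same order of libraries. It was highest for OST4, a subunit of the oligosaccharyltransferase (1.36), S100A11, a calcium-binding protein (1.26), EIF2AK2, the double-stranded RNA kinase PKR (1.16), the syndecan SDC3 (1.07), IFI6 (1.03) and SOX10 (1.01). SDC3 had 49.1, 42.6, 4.98 and 7.72 per 100 and EIF2AK2 had 28.1, 15.2, 1.57 and 5.18, so both were high in batch 1. OST4 differed from these with 17, 48.3, 42.6 and 69.4, where control replicate 1 was lowest.

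The effect of CDH3-AS1 siRNA was tested on 3′ UTR reads with edgeR's quasi-likelihood test and Benjamini-Hochberg adjustment over 979 3′ UTRs that passed the count filter, 748 of them selected; the other 388 selected ones were too low to test. Without regard to batch, 0 of 979 passed an adjusted p of 0.05 (0%), with 16 at an unadjusted p under 0.05, 7 of them selected, and DESeq2 called 2, of which VGF was selected. The replicate numbers mark a shared batch, and with batch as a block 8 passed (0.817%; 0.511% higher and 0.306% lower). Of these, 3 were among the 748 selected (0.401%): IFI6 and SPARC were higher and VGF lower after CDH3-AS1 siRNA. The median log2 fold change of the 748 was -0.10, against -0.03 over all 979, and 43.7% of them were above 0.

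IFI6 had 3′ UTR levels of 393 ± 65.4 RPKM in controls and 1797 ± 74.8 RPKM after CDH3-AS1 siRNA (SD, n = 2), and the groups did not overlap. Its log2 fold change with the block was 1.98 (SE 0.33, edgeR adjusted p = 5.23e-05), being 2.28 in batch 1 and 1.69 in batch 2. Its coding reads changed the same way, by 1.02 (SE 0.18, edgeR adjusted p = 5.81e-06). SPARC, a matrix glycoprotein, had 65, 417, 47 and 202 reads in a 3′ UTR of 2475 bases, which was 12.9, 24.9, 3.17 and 28.6 RPKM. Both siRNA libraries were above both controls, and the log2 fold change was 1.83 (SE 0.42, edgeR adjusted p = 0.0137), being 1.14 in batch 1 and 2.49 in batch 2. The coding reads of SPARC changed by 0.92 (SE 0.19, edgeR adjusted p = 0.00027). VGF changed by -7.28 in its 3′ UTR (SE 0.99, edgeR adjusted p = 7.75e-07) and by -1.30 in its coding sequence (SE 0.26, edgeR adjusted p = 0.000252). The VGF value rests on control replicate 1: it was -8.71 in batch 1 and -1.01 in batch 2, and in the fit without a block it went from -7.62 to -1.78 when that library was left out. In the same fit, leaving out control replicate 2 moved the coding values of IFI6 from 0.97 to 0.64, of SPARC from 0.88 to 0.54 and of VGF from -1.39 to -0.77, and leaving out control replicate 1 moved SPARC to 1.40.

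**Figure D5:**
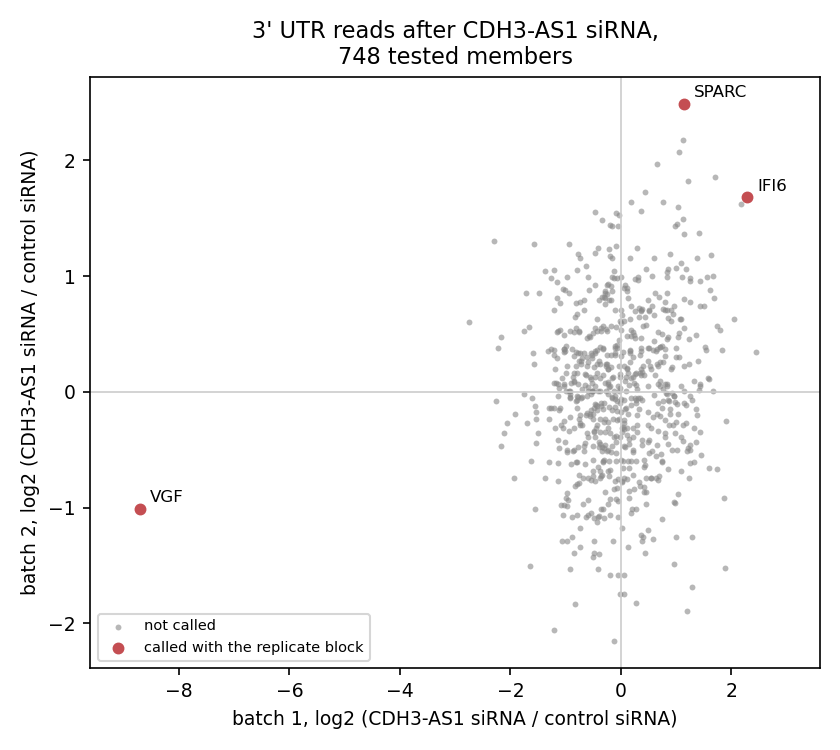
Log2 fold change of 3′ UTR reads after CDH3-AS1 siRNA in batch 1 (horizontal) and batch 2 (vertical) for 748 tested genes; red marks the 3 that passed with batch as a block. SPARC and IFI6 lie to the upper right, VGF lies far left at -8.71, and the remaining points scatter around 0 on both axes.

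Further genes had differences in the same direction in both batches without passing. TUBA1B, an alpha tubulin with near-identical copies elsewhere, had 8, 80, 8 and 15 3′ UTR reads (log2 fold change 1.57, edgeR adjusted p = 0.365 with the block). NDRG1, a stress and hypoxia response gene, had 7, 67, 8 and 13, and REEP3, which shapes the endoplasmic reticulum, had 4, 30, 3 and 14. TIMP3 had a log2 fold change of 1.31 with an edgeR adjusted p of 0.0631 with the block. On the lower side were SPIN1, a reader of histone marks, with 17, 24, 26 and 6 reads (-1.30, edgeR adjusted p = 0.613) and UBE2M, the NEDD8-conjugating enzyme, with 20, 17, 15 and 5. In raw reads these differences are mixed with depth, since CDH3-AS1 replicate 1 had the most reads and control replicate 1 the fewest.

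The 3′ UTR was also tested relative to the coding sequence of the same transcript, as an interaction of region and siRNA over 956 transcripts, 732 of them selected. Without the block 0 passed (0%; 16 at an unadjusted p under 0.05, 6 of them selected, and 0 by DESeq2). With the block 1 of 956 passed (0.105%), which was not a selected gene, so that 0 of 732 selected genes passed. At an unadjusted p under 0.05 there were 54 of the 956, 26 of them among the 732 selected. The median log2 change of the 732 was -0.09, being -0.03 in batch 1 and -0.06 in batch 2, against -0.02 over all 956. This test scales each region within each library, which takes out the library-wide differences in 3′ UTR density described above. SNX3, a sorting nexin of endosomes, had the smallest p of the higher genes. Its 3′ UTR had 3, 53, 16 and 39 reads, or 1.72, 12.2, 1.77 and 11 per 100 coding reads, and both siRNA libraries were above both controls. The log2 change was 2.31 (SE 0.58) with the block, with an edgeR adjusted p of 0.694. BCL2L1, the anti-apoptotic BCL-X gene, had 11.8, 25.7, 5.05 and 27.7 per 100 (log2 change 1.52, edgeR adjusted p = 0.784), again with no overlap. UBE2D3, a ubiquitin-conjugating enzyme, had 12.4, 3.11, 3.45 and 2.75 per 100 (-1.48, edgeR adjusted p = 0.784), with both siRNA libraries below both controls. For IFI6 the relative change was 0.96 (edgeR adjusted p = 0.784) and for SPARC 0.90 (edgeR adjusted p = 0.784), so for neither was a change of the 3′ UTR beyond that of the coding sequence called. The IFI6 value was 1.61 in batch 1 and 0.31 in batch 2, and in the fit without a block it went from 0.96 to 0.11 without control replicate 1 and to 1.93 without control replicate 2. The SPARC value was 0.40 in batch 1 and 1.38 in batch 2, and went from 0.91 to 0.31 without CDH3-AS1 replicate 2 and to 1.55 without CDH3-AS1 replicate 1.

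Coding reads of the selected genes were tested with all coding reads, summed per gene, over 10469 genes. Without the block 0 passed (0%; 225 at an unadjusted p under 0.05, and 2 by DESeq2), and with it 170 passed (1.62%; 0.927% higher and 0.697% lower). Of 1118 selected genes tested, 33 passed (2.95%), 19 higher and 14 lower after CDH3-AS1 siRNA. The selected transcripts had a median of 1219.5 pooled coding reads against 256 over all kept transcripts, and genes with more reads are called more easily. These shares were not matched for abundance. The direction was the same in both batches in 32 of the 33, against 57.1% of the 1118 and 54.3% of all 10469 genes. The block fit calls genes from these same differences, so this count is largely built in and is no separate evidence. Of the 33, 26 also had testable 3′ UTR reads. Both measures come from the same 4 libraries, so their values are given side by side only.

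Those higher included genes of secreted signals. INHBA, the activin A subunit, had 68, 1170, 293 and 532 coding reads and changed by 2.17 (SE 0.28, edgeR adjusted p = 2.12e-11). Its 3′ UTR had 4, 28, 3 and 13 reads and a fitted change of 1.85 (edgeR adjusted p = 0.69). SFRP1, a secreted WNT modulator, changed by 1.18 in coding reads (edgeR adjusted p = 0.000206), and its 3′ UTR had 16, 50, 18 and 26 reads, with log2 differences of 0.11 in batch 1 and 0.90 in batch 2. CSF1, the macrophage growth factor, changed by 1.14 (edgeR adjusted p = 0.000438), and its 3′ UTR had 40, 125, 14 and 15 reads, with a value of 0.26 in the fit without a block that went from -0.52 without CDH3-AS1 replicate 1 to 1.35 without control replicate 1. TENT5A, a poly(A) polymerase, changed by 1.12 (edgeR adjusted p = 0.00367), and its 3′ UTR had 19, 26, 6 and 10 reads, with log2 differences of -0.97 in batch 1 and 0.99 in batch 2. The transcription factors ARID3A (1.87) and FOXE1 (1.57) passed too, but with 3, 3, 4 and 3 and with 3, 19, 7 and 7 3′ UTR reads they were too low there to test. NGFR passed at 1.19 (edgeR adjusted p = 3.9e-05), with a value in the fit without a block of 1.15 that became -0.16 when CDH3-AS1 replicate 1 was left out and 2.62 without control replicate 1. Its coding reads were 1447, 10547, 987 and 1066. Leaving out a library in the fit without a block also moved SFRP1 from 1.10 to 0.59 without control replicate 1, 0.52 without CDH3-AS1 replicate 2 and 1.99 without control replicate 2. CSF1 went from 1.15 to 0.59 without CDH3-AS1 replicate 1, 0.76 without control replicate 2 and 1.73 without control replicate 1.

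Among those lower, UCN2, the stress peptide urocortin 2, had 122, 158, 118 and 13 coding and 37, 44, 27 and 4 3′ UTR reads. Its fitted change was -1.62 in each region (edgeR adjusted p = 0.0022 for coding and 0.215 for 3′ UTR reads). In the fit without a block the coding value of UCN2 ranged from -3.04 without CDH3-AS1 replicate 1 to -0.37 without control replicate 1. SELENON changed by -1.08 in coding reads (edgeR adjusted p = 0.00454) and had a fitted -1.72 in its 3′ UTR (edgeR adjusted p = 0.294), being -1.94 in batch 1 and -0.75 in batch 2. In the fit without a block the 3′ UTR value went from -1.68 to -0.23 without control replicate 1. It was the only selenoprotein of 16 tested whose coding reads were called with the block. CHMP1B, an ESCRT-III subunit, changed by -1.25 in coding reads (edgeR adjusted p = 0.00041), with 14, 29, 34 and 11 3′ UTR reads. Without control replicate 2 its coding value in the fit without a block went from -1.38 to -0.61. TMED2, a cargo receptor of the early secretory pathway, changed by -1.17 (edgeR adjusted p = 0.00225), and its 3′ UTR had 4, 53, 22 and 5 reads, with log2 differences of 1.88 in batch 1 and -1.52 in batch 2. Its coding value in that fit went from -1.24 to -0.81 without CDH3-AS1 replicate 1 and -0.39 without control replicate 2. HNRNPC, an RNA-binding splicing regulator, passed at -1.0 (edgeR adjusted p = 0.0148) but was at -2.0 in batch 1 and 0.02 in batch 2, and without control replicate 1 the value in the fit without a block went from -1.23 to -0.09. MLANA changed by -0.70 in coding reads (edgeR adjusted p = 0.0397), and its 3′ UTR reads had no settled sign, with log2 differences of 1.13 in batch 1 and -0.43 in batch 2 (edgeR adjusted p = 0.898 with the block). With MLANA, 6 of 25 pigmentation genes were called lower and 0 higher with the block, and the list's median was -0.45 in the fit without a block against -0.03 over all genes tested.

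No coding call was made with the block among the nonsense-mediated decay factors (16 tested), the termination, recycling and rescue factors (20), the replication-dependent histones (53), the listed readthrough genes (10) or the frameshifting genes (3), and without the block none was made in any list. Of 62 ribosomal protein genes RPL6 was called higher. All 6 skeletal muscle genes that could be tested were called lower with the block, with a median of -4.55 in batch 1 and -0.03 in batch 2, and the summed level of all listed muscle genes was 5392 CPM in control replicate 1 and 14.2 to 48.8 in the others.

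Just inside the limit on the share were NT5E, the ecto-nucleotidase CD73, at 1.00%, ATP6V0B, a proton pump subunit, at 1.01% and the cargo receptor TMED9 at 1.01%. Just outside were the co-chaperone STIP1 at 0.997%, the phosphatase DUSP10 at 0.995% and RAI14 at 0.991%. By reads, POGZ (19, 106, 3 and 4) and ARL6IP1 (3, 65, 25 and 24) met the minimum exactly, while ATP5F1E (2, 42, 37 and 19), an ATP synthase subunit, and ARID5B (2, 64, 9 and 19) missed it by 1 read. In all, 273 selected 3′ UTRs (24.0%) had exactly 3 reads in their lowest library, and 196 (17.3%) had a pooled share between 1% and 2%.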

How the data were processed

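Ribosome profiling was analysed in 4 libraries of Hermes 4B melanocytes. The deposited tables give, per the file headers, read counts of each transcript's 5′ UTR, coding sequence and 3′ UTR with region lengths, and RPKM values (reads scaled to region length and library depth) that the authors computed from them. The genome build hg38 and DESeq2 are named per the submitters' processing notes; not given in the sources used here were the aligner, the counter, the annotation release, any filters, and whether strand was used. The genes and lists were chosen with earlier results of these data known.

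Per gene name the transcript with the most reads was kept; 108 gene names had tied transcripts, resolved by name. edgeR 4.0.16 (R 4.3.3) was run on counts after filterByExpr (minimum count 10, minimum total 15) with TMM scaling and an adjusted p of 0.05; DESeq2 1.42.0, and limma 3.58.1 on log2(RPKM + 1), were alternatives, as were other read and share limits, other transcript choices, DESeq2 size factors, no filter and leaving out each library. Per-batch values use a prior count of 2. The labels give same-numbered libraries a shared batch, so numbers pair them: deviations from group means correlated at r = 0.53 for 3′ UTR and 0.58 for coding counts. Tested on simulated data, the 3′ UTR fit over 979 regions recovered 0% of 4-fold changes without the block and 10.4% with it, and 0% of 2-fold changes; the coding fit over 10469 genes recovered 0% of both sizes without the block, and 93.7% and 41.6% with it, where 6 of 147 calls were false; the relative fit over 687 genes recovered 0% of 4-fold changes without the block, and 60.2% with it, where 4 of 84 calls were false. Counts of 0 without the block are therefore no sign of stable levels. For the 3′ UTR and coding fits without the block, the simulated spread was estimated without regard to batch. The counts were then drawn around means that differed by batch. Batch differences thus entered these simulations in both ways, and recovery without the block may be understated there. In the simulation of the relative fit, coding counts were drawn with a single fixed spread that was not estimated from the data. Fewer genes entered it than the 956 of the real test, so its recovery may differ from that in the data. RefSeq's GRCh38.p14 gene table matched 13898 of 14355 gene names, 1123 of them selected.

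Genes were named by a rule: most reads; highest density; over 90% of reads in 1 library; listed genes; past the threshold or smallest p in each test; nearest the limits; longest and shortest; least and most variable; and CDH3. A part of the rule that compared coding lengths with RefSeq proteins could not be applied. Genes named for overlap, small RNA genes or list membership beyond this were chosen after their values were seen. A few items are not reported here.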

Additional observations from a re-analysis of the deposited data

Results flagged for a closer look

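The median 3′ UTR to coding density ratio of the selected genes differed between CDH3-AS1 siRNA and control by -0.00883 in batch 1 and by 0.00902 in batch 2. The 2 batches moved in opposite directions, and with 1 library per siRNA in each batch this difference between batches was not tested. In each batch the shallower library had the higher median, which the read minimum used for the selection favours.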

How the results depend on the processing

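The number of selected 3′ UTRs, 1136, became 685 with a minimum of 5 reads, 304 with 10 reads and 523 with a share of at least 5%; it was 940 to 1225 with shares of 2% and 0.5%, 992 to 1112 with other transcript choices, 1135 with tied transcripts resolved the other way (chosen after seeing the data), and 1115 to 1522 without each library in turn. Above 80% of reads in 1 library there were 3 genes in place of 1. The median density ratio of 0.0283 stayed within the spread between libraries (0.0248 to 0.0349 without each library).

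Against 0 calls for 3′ UTR reads there were 8 with the replicate block, 2 with DESeq2, 5 without a filter, 3 with limma, and 0 to 41 without each library (41 without control replicate 2, 9 of them selected). Relative to coding reads there was 1 with the replicate block, 1 without a filter, and 0 to 6 without each library, 6 without control replicate 2. For coding reads there were 170 with the replicate block, 2 with DESeq2, 52 without a filter, and 0 to 73 without each library, again most without control replicate 2. The cause was not tested. Leaving out a library leaves 1 library of that siRNA, which is then assumed to vary like the others.

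The median 3′ UTR log2 fold change of -0.10 became 0.000601 without a filter and -0.16 to 0.14 without each library, above 0 without control replicate 1. The median relative to coding reads, -0.09, became -0.12 with DESeq2 size factors, 0.0535 without a filter and -0.10 to 0.0642 without each library, again above 0 without control replicate 1. The difference of 3′ UTR shares, -0.45 points, turned to 0.10 without transcripts with over 90% of their reads in 1 library, SLC46A1 among them. With the replicate block the median 3′ UTR log2 fold change was -0.0892 and the median relative to coding reads was -0.0823. Depth limits the 3′ UTR results: the median selected region had 8 to 29 reads per library.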
